A study of Mus musculus with 30 samples.

Results

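The 46 genes described here encode the proteins that mark replication origins, load and fire the replicative helicase, and copy DNA at the fork. They comprised the MCM2-7 helicase (6 genes), origin recognition and licensing (8), origin firing (8), the replicative DNA polymerases and primase (9), the clamp, clamp loader, single-strand binding protein and lagging strand enzymes (11) and the supply of deoxynucleotides (4). The genes were chosen by symbol from a fixed list and matched through the platform's probe annotation to the rows of the deposited expression table. For the 3 genes with several rows, values come from the row of highest average level. All 46 were found, among 19938 genes tested.

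Expression was measured on 30 Affymetrix gene arrays of tumours grown in mice from EL4, a murine lymphoma line of T cell origin, injected under the skin of the flank. Mice had either been given a cocktail of antibiotics for 3 weeks before the tumour cells (labelled ABX) or been left untreated (labelled H2O, called water here), and both arms received oxaliplatin at 10 mg per kg into the peritoneal cavity 7 days after the tumour cells. Tumours were taken at 0, 6 and 18 h after oxaliplatin, which gave 6 groups of 5 arrays, and the study asked how antibiotics affected tumour gene expression before and early after chemotherapy. The titles carry "WT" for all 30; mouse strain, sex and age and the drugs of the cocktail are not given in the sources used here, nor whether each array is a separate mouse, so the p-values reflect sample-to-sample spread, which may be technical. Tumours without oxaliplatin at 6 or 18 h were not analysed here, so the drug and the passing of time cannot be told apart. The sample numbers, 1 to 30, run in blocks by group, so order of handling and group cannot be told apart either, and the numbers pair no samples.

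A cell copies its genome from many origins. In G1 phase the origin recognition complex (Orc1 to Orc6), Cdc6 and Cdt1 load the MCM2-7 ring onto DNA, which licenses the origin; in S phase the kinase Cdc7 with its activator Dbf4, and the factors Mcm10, Cdc45 and GINS, turn that ring into a moving helicase. Polymerase alpha with primase starts each strand, polymerases epsilon and delta extend it, and the PCNA clamp, its RFC loader, the single-strand binding protein RPA, the flap nuclease Fen1 and DNA ligase 1 complete it. Many of these genes are transcribed in late G1 under the control of E2F factors. Oxaliplatin is a platinum compound that crosslinks bases of DNA, and such lesions stall forks.

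Because these genes are known as E2F targets, 4 words of E2F type (TTTCCCGC, TTTCGCGC, TTTGCCGC and TTTGGCGC) were searched on both strands of RefSeq promoters of the GRCm38.p6 assembly, from 250 bases before to 50 after the start used in that table. Of the 46 genes, 39 matched a promoter by symbol, and 15 of them (38.5%) held a word, against 2.6% of 27025 genes with a promoter. In 9 of the 39 (23.1%, against 2.16%) a word lay before the start, and in Mcm3, Lig1, Pold1, Pold3, Cdt1 and Pole2 only after it. Windows of 30 bases are shown for 5 genes that passed the test in at least 1 comparison below, with the word in capitals and the sequence written on the strand of the gene.
Orc1, chr4:108579416-108579445, plus strand: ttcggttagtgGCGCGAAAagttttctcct
Cdc6, chr11:98908002-98908031, plus strand: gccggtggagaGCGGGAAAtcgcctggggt
Orc3, chr4:34614965-34614994, minus strand: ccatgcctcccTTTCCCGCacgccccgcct
Pola1, chrX:93632275-93632304, minus strand: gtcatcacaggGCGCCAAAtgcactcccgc
Rfc3, chr5:151651209-151651238, minus strand: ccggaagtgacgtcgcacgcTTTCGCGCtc
The 150 bases before the start are shown for Mcm6, which held the most words of any of these genes (3, of which 2 overlap by 4 letters) and was called in none of the 12 comparisons, and for Pold2, which held none and was called lower at 18 h in both arms.
Mcm6, chr1:128359706-128359855, minus strand: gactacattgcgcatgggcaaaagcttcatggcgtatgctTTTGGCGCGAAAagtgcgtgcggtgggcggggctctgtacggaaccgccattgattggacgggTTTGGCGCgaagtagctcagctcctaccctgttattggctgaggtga
Pold2, chr11:5878257-5878406, minus strand: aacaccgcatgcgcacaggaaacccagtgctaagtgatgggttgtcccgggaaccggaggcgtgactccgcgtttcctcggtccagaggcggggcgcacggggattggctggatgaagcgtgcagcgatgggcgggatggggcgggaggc
The remaining words before a start were in Mcm5, Mcm7 and Gins3. A match describes letters in a window and is not evidence of a bound site. The deposited table names no genome build for the array's probes, so probe positions were not used here. Gins1, Gins2, Gins4, Mcm4, Pole, Rfc2 and Prim2 were not matched to a promoter.

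The T cell label of EL4 was checked on 10 listed markers, of which 9 were matched (all but Lck). Cd3e, Cd3g, Thy1 and Ptprc were the highest of the 9, with averages of 11.29, 11.89, 11.93 and 11.81 on the log2 scale. Cd3d, Cd5 and Zap70 averaged 10.37, 10.41 and 10.11, and Cd247 and Cd2 averaged 8.33 and 7.83. The array medians over all rows ran from 7.25 to 7.37. The tumours also held other cells. Relative to the mean of all 30 arrays, the mean level of 12 monocyte and macrophage markers averaged 0.27 (log2; array range 0.089 to 0.486) in water tumours at 18 h, 0.106 in water tumours at 0 h (-0.0989 to 0.374) and -0.103 in antibiotic tumours at 18 h (-0.453 to 0.132). The 9 matched keratinocyte markers stood at 1.98 on array 11 (water, 6 h) and 1.91 on array 16 (antibiotics, 6 h). Skeletal muscle markers were highest on array 20 (antibiotics, 6 h), and array 18 of that group had the narrowest spread of values. Antibiotic tumours at 6 h were also the most variable group, with a median SD per gene of 0.135 over all genes and 0.108 over the 46. No 2 arrays held identical values.

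**Figure D1:**
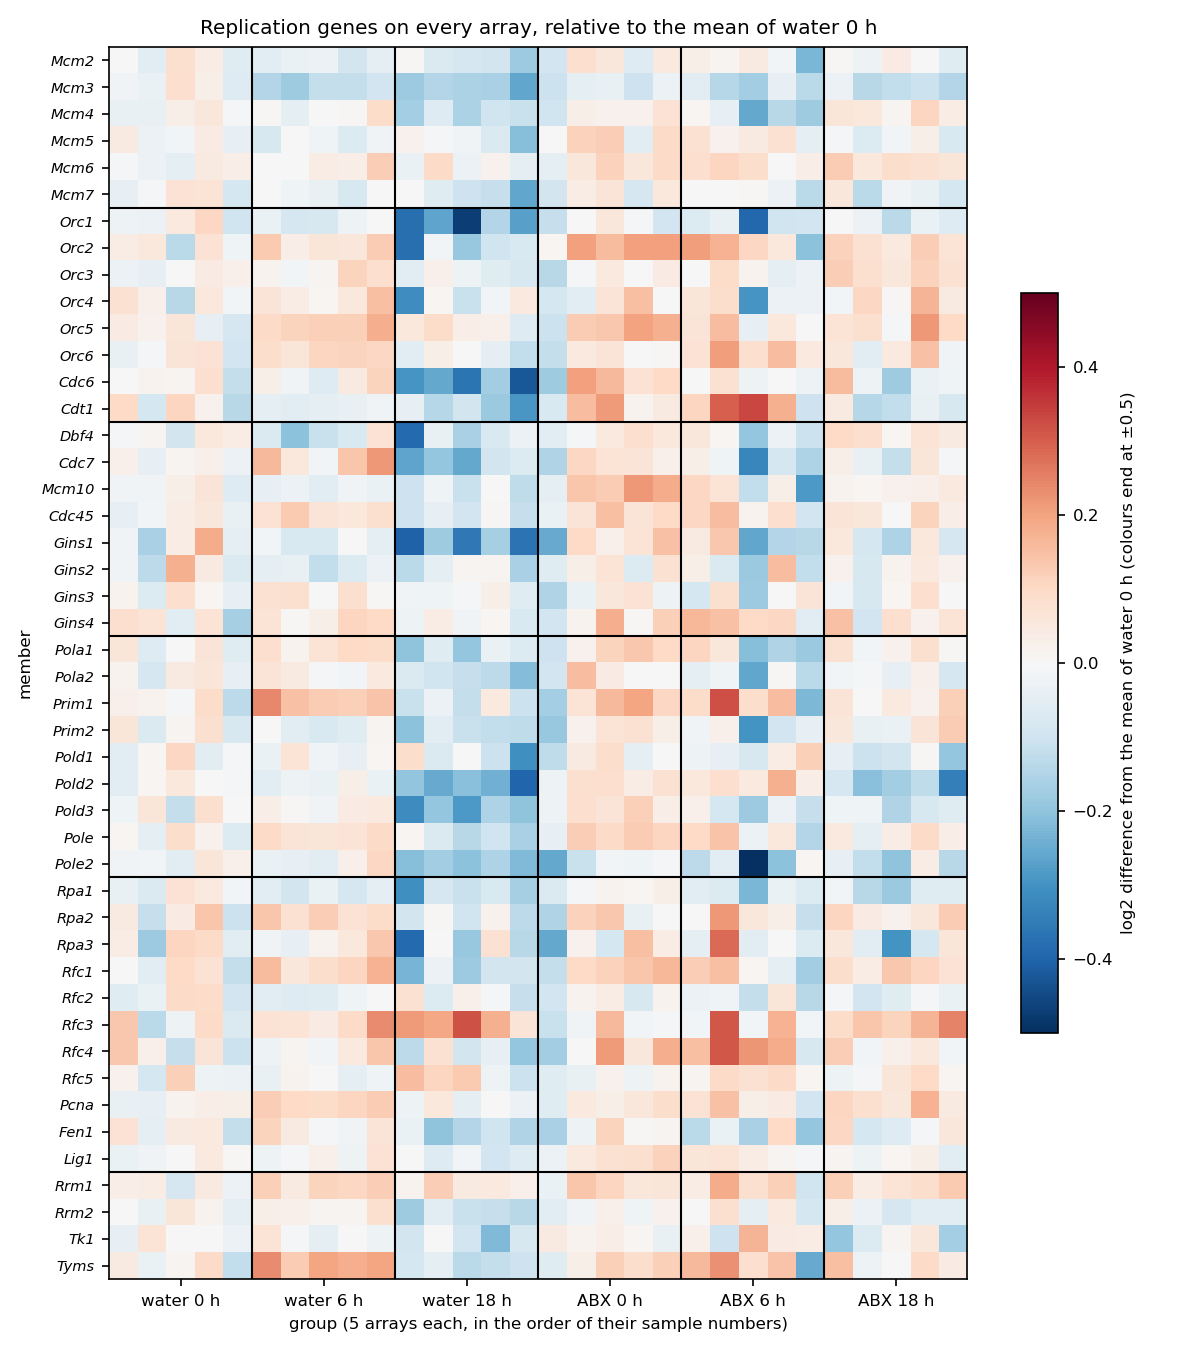
Log2 difference of each of the 46 genes (rows, grouped by role) from its mean in water tumours at 0 h, on each of the 30 arrays (columns, 5 a group), with blue below and red above. The 5 water arrays at 18 h are mostly blue, with 34 to 43 of 46 genes below the water 0 h mean, and the antibiotic arrays at 18 h have 13 to 31 below it.

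In the water arm 9 of the 46 replication genes were lower 18 h after oxaliplatin than at 0 h. They were Orc1, Cdc6, Gins1, Pold2, Pold3, Mcm3, Cdc7, Rpa1 and Rrm2. Orc1 fell by 19.2%, and Rrm2, with the smallest of these changes, fell by 7.94%. Rfc3 rose. In all, limma with Benjamini-Hochberg adjustment over all 19938 genes called 9 of 46 lower and 1 higher at an adjusted p under 0.05, where 7.94% of all genes were called lower and 6.18% higher. Below 0 lay 41 of the 46 log2 fold changes, against 46.2% of all genes, with a median of -0.09 against 0.01 over all genes. For 11 genes every array at 18 h lay below every array at 0 h, against 6.69% of all genes. In bulk tumours, fewer cells expressing these genes and less of their RNA per cell cannot be told apart.

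The loss of single arrays moved that count: 6 genes passed without array 3 (water, 0 h) and 6 without array 21 (water, 18 h). Mcm3, Orc1, Cdc6, Gins1, Pold2 and Pold3 kept their calls in all 17 refits that left out an array or changed the scaling, filter or variance model. Cdc7 and Rfc3 lost theirs in 8 of 17, and Rpa1 and Rrm2 in 3 of 17 (without arrays 3, 4 or 21). Over the same contrast 2 of 12 monocyte and macrophage markers, 4 of 8 endothelial, 1 of 8 fibroblast, 1 of 9 T cell, 1 of 3 B cell and 1 of 2 erythroid markers were called higher, and no marker of these lists was called lower. The median log2 fold change was 0.0028 for the T cell and 0.25 for the B cell markers. The mean level of the B cell markers relative to all 30 arrays ran from 0.0934 to 0.343 on the water arrays at 18 h and from -0.132 to 0.0400 at 0 h, without overlap. Ms4a1 and Cd79a had low signal, with averages of 4.77 and 5.31 (log2, percentiles 7.83 and 12.6 of all genes), and Cd79b averaged 7.49 (percentile 49.4). The erythroid markers Epb42 and Alas2 averaged 5.58 and 6.84. Whether B cells or erythroid cells were present was not tested. The part of these other cells in the fall was not tested.

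Of origin recognition and licensing, 2 of 8 genes fell from 0 to 18 h with water, against 7.94% of all genes. Orc1, the subunit whose level is known to rise and fall with the cell cycle, measured 9.08, 9.07, 9.15, 9.20 and 9.00 (log2, arrays 1 to 5) in water tumours at 0 h and 9.07, 9.02, 9.02, 9.08 and 9.10 at 6 h. At 18 h it measured 8.72, 8.84, 8.63, 8.95 and 8.83. All 5 arrays at 18 h lay below every array at both earlier times, with array 23 lowest, and the change from 0 h was -0.31 ± 0.059, adjusted p = 0.000603 (log2 fold change ± SE, limma). In antibiotic tumours Orc1 measured 8.99, 9.10, 9.16, 9.09 and 9.01 at 0 h, 9.03, 9.07, 8.71, 9.00 and 9.01 at 6 h and 9.10, 9.07, 8.97, 9.07 and 9.03 at 18 h. There the groups overlapped, array 18 alone dipped at 6 h, and the change from 0 to 18 h was -0.02 ± 0.059, adjusted p = 0.971.

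Cdc6, the loader that joins ORC to bring in the helicase, gave 8.70, 8.71, 8.71, 8.78 and 8.57 at 0 h, 8.72, 8.68, 8.63, 8.74 and 8.81 at 6 h and 8.40, 8.44, 8.33, 8.52 and 8.27 at 18 h in the water arm. The 18 h arrays again lay below all 10 earlier ones, and Cdc6 fell by 18.9% (-0.30 ± 0.062, adjusted p = 0.00115). With antibiotics it gave 8.52, 8.90, 8.85, 8.77 and 8.79 at 0 h, 8.69, 8.77, 8.67, 8.69 and 8.67 at 6 h and 8.85, 8.67, 8.52, 8.66 and 8.67 at 18 h. Array 6 at 0 h and array 28 at 18 h lay at 8.52, the groups overlapped, and the change was -0.09 ± 0.062, adjusted p = 0.68. Cdt1, the partner of Cdc6 in loading the ring, did not pass in water tumours: it measured 10.12, 9.93, 10.12, 10.04 and 9.88 at 0 h, 9.97, 9.96, 9.97, 9.98 and 10.00 at 6 h and 9.98, 9.87, 9.92, 9.83 and 9.72 at 18 h. Those groups overlapped, at -0.15 ± 0.068, adjusted p = 0.157. The other subunits of ORC differed from 0 h by -0.15 (Orc2) to 0.03 (Orc5) at 18 h and none passed.

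Among the origin firing factors, 2 of 8 fell and all 8 lay below 0, against 7.94% and 46.2% of all genes. Cdc7, the kinase that phosphorylates the loaded ring, measured 8.57, 8.50, 8.56, 8.57 and 8.51 at 0 h, 8.70, 8.59, 8.53, 8.68 and 8.76 at 6 h and 8.28, 8.35, 8.29, 8.45 and 8.47 at 18 h in water tumours. It was lower on each 18 h array than on any 0 h array, with -0.17 ± 0.059, adjusted p = 0.047. Gins1, a subunit of the GINS complex, measured 9.64, 9.49, 9.69, 9.84 and 9.61 at 0 h, 9.64, 9.58, 9.58, 9.65 and 9.61 at 6 h and 9.25, 9.48, 9.30, 9.49 and 9.28 at 18 h. Arrays 22 and 24 came close to the lowest 0 h array (array 2) without reaching it, and Gins1 fell by 18.5% (-0.30 ± 0.075, adjusted p = 0.00764). Its partners Gins2, Gins3 and Gins4 had log2 fold changes of -0.06, -0.01 and -0.01, and none passed. Dbf4, the activator of Cdc7, was at -0.14 ± 0.058, adjusted p = 0.122, and Cdc45 at -0.07 ± 0.042, adjusted p = 0.314. Mcm10, which helps the ring to start unwinding, measured 9.94, 9.94, 9.98, 10.02 and 9.89 at 0 h and 9.85, 9.93, 9.84, 9.95 and 9.83 at 18 h, and the groups overlapped (-0.07 ± 0.055, adjusted p = 0.457).

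Of the 6 subunits of the helicase ring itself, only Mcm3 fell between 0 and 18 h in water tumours, against 7.94% of all genes. It measured 10.72, 10.71, 10.83, 10.77 and 10.67 at 0 h, 10.60, 10.56, 10.62, 10.62 and 10.64 at 6 h and 10.56, 10.59, 10.58, 10.58 and 10.48 at 18 h. Every array at 6 h already lay below every array at 0 h, as did every array at 18 h. The change was -0.13 ± 0.036, adjusted p = 0.0772, at 6 h and -0.18 ± 0.036, adjusted p = 0.000914, at 18 h. Mcm4 also had no overlap between 0 and 18 h but missed the threshold (-0.12 ± 0.043, adjusted p = 0.0587). Mcm2 measured 11.47, 11.41, 11.55, 11.51 and 11.41 at 0 h, 11.41, 11.43, 11.44, 11.38 and 11.42 at 6 h and 11.47, 11.39, 11.38, 11.38 and 11.29 at 18 h, with overlap and -0.09 ± 0.047, adjusted p = 0.271. Mcm6, whose promoter is printed above, was at 0.00, and Mcm5 and Mcm7 were at -0.06 and -0.11.

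Of the 9 polymerase and primase genes, 2 fell with water, against 7.94% of all genes, and both were subunits of polymerase delta. Pold2, its small accessory subunit, measured 11.00, 11.07, 11.11, 11.06 and 11.05 at 0 h, 11.00, 11.03, 11.02, 11.09 and 11.02 at 6 h and 10.86, 10.80, 10.85, 10.82 and 10.66 at 18 h in water tumours. In antibiotic tumours it measured 11.03, 11.14, 11.14, 11.09 and 11.13 at 0 h, 11.11, 11.14, 11.11, 11.23 and 11.09 at 6 h and 10.97, 10.85, 10.88, 10.93 and 10.72 at 18 h. In both arms all 5 arrays at 18 h lay below all 10 earlier arrays, with arrays 25 and 30 lowest. Pold2 fell by 16.4% with water (-0.26 ± 0.044, adjusted p = 0.000156) and fell by 15.1% with antibiotics (-0.24 ± 0.044, adjusted p = 0.00415). The antibiotic call was lost when the 0 and 18 h groups of that arm were fitted alone.

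Pold3, the subunit of polymerase delta that contacts PCNA, measured 10.48, 10.56, 10.38, 10.58 and 10.50 at 0 h, 10.53, 10.50, 10.48, 10.54 and 10.55 at 6 h and 10.18, 10.30, 10.21, 10.34 and 10.30 at 18 h in the water arm. Each 18 h array lay below every earlier one, and the change from 0 h was -0.23 ± 0.044, adjusted p = 0.000535. With antibiotics Pold3 measured 10.47, 10.58, 10.56, 10.62 and 10.53 at 0 h, 10.52, 10.41, 10.32, 10.47 and 10.38 at 6 h and 10.48, 10.48, 10.35, 10.42 and 10.44 at 18 h. These groups overlapped, and the 18 h change there was -0.12 ± 0.044, adjusted p = 0.209. Pold1, the catalytic subunit, was at -0.08 with water and -0.08 with antibiotics and passed in neither. Pole2, of polymerase epsilon, had no overlap in water tumours yet missed the threshold (-0.19 ± 0.069, adjusted p = 0.061). Pole, Pola1, Pola2, Prim1 and Prim2 lay between -0.13 (Pola2) and -0.06 (Prim1).

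At the clamp and on the lagging strand, 1 of 11 genes fell and 1 rose, near the 7.94% and 6.18% of all genes. Rpa1, the large subunit of RPA, measured 10.82, 10.79, 10.93, 10.91 and 10.85 at 0 h, 10.80, 10.77, 10.82, 10.78 and 10.81 at 6 h and 10.55, 10.77, 10.75, 10.78 and 10.69 at 18 h. Array 21 was lowest, array 24 lay just under the lowest 0 h array, and the change was -0.15 ± 0.045, adjusted p = 0.0243. Rfc3, a small subunit of the clamp loader, went the other way: 9.93, 9.66, 9.77, 9.90 and 9.72 at 0 h, 9.87, 9.87, 9.84, 9.89 and 10.04 at 6 h and 10.01, 9.99, 10.12, 9.98 and 9.86 at 18 h. Those groups overlapped, the change was 0.19 ± 0.064, adjusted p = 0.0436, and it no longer passed once array medians were subtracted. Its fellow subunits Rfc1, Rfc2, Rfc4 and Rfc5 were at -0.13, -0.02, -0.08 and 0.05 and did not pass. Fen1 was at -0.13 ± 0.055, adjusted p = 0.139, and Lig1 at -0.05 ± 0.033, adjusted p = 0.418.

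Of the 4 enzymes that supply deoxynucleotides, Rrm2 alone fell, against 7.94% of all genes. This small subunit of ribonucleotide reductase measured 11.78, 11.74, 11.84, 11.80 and 11.73 at 0 h, 11.81, 11.81, 11.79, 11.79 and 11.86 at 6 h and 11.60, 11.72, 11.67, 11.66 and 11.64 at 18 h. The 18 h arrays lay below both earlier groups, array 22 by least, and the change was -0.12 ± 0.035, adjusted p = 0.0211. Rrm1, its large partner, was at 0.05 ± 0.043, adjusted p = 0.513, and thymidine kinase (Tk1) at -0.10 ± 0.049, adjusted p = 0.216.

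**Figure D2:**
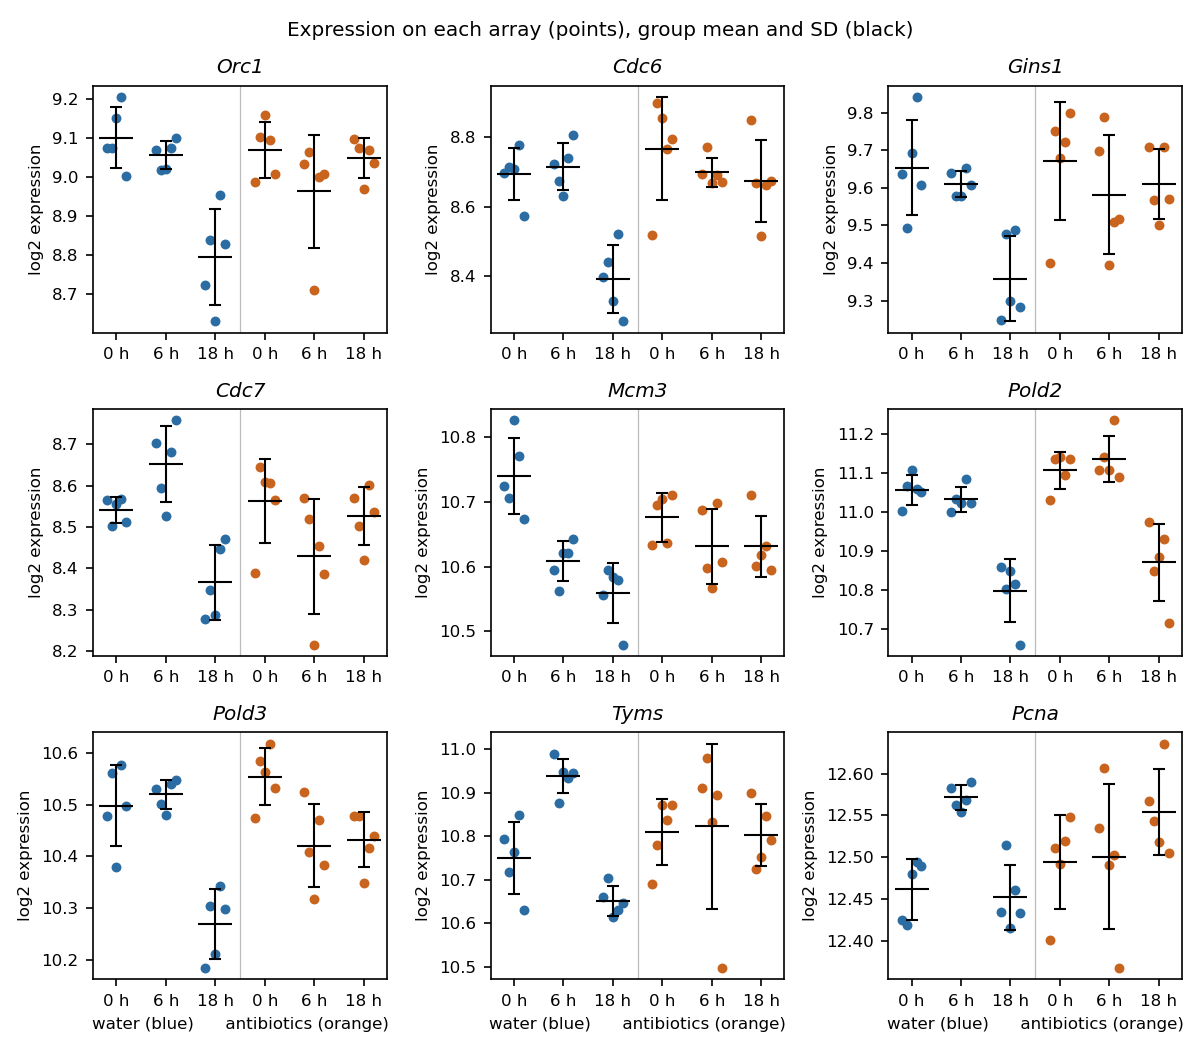
Log2 expression of 9 replication genes on each array (points; blue water, orange antibiotics), with the group mean and SD of 5 arrays in black. In the water arm Orc1, Cdc6, Pold2 and Pold3 at 18 h lie wholly below 0 and 6 h, and in the antibiotic arm only Pold2 of these 4 does.

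At 6 h none of the 46 genes passed in water tumours, where 0.697% of all genes were called higher and 0.416% lower. At an unadjusted p under 0.05 there were 7 of 46, against 10.6% of all genes. Tyms, thymidylate synthase, measured 10.79, 10.72, 10.76, 10.85 and 10.63 at 0 h and 10.99, 10.88, 10.95, 10.93 and 10.95 at 6 h, so that every 6 h array was above every 0 h array (0.19 ± 0.062, adjusted p = 0.167). Pcna, the clamp, measured 12.42, 12.42, 12.48, 12.49 and 12.49 at 0 h and 12.58, 12.56, 12.55, 12.57 and 12.59 at 6 h, also without overlap (0.11 ± 0.038, adjusted p = 0.211). Orc5, an ATP-binding subunit of ORC, measured 10.01, 9.99, 10.03, 9.93 and 9.88 at 0 h and 10.07, 10.08, 10.09, 10.09 and 10.15 at 6 h, again without overlap (0.12 ± 0.051, adjusted p = 0.325). Together with Rrm1 and Prim1 these made 5 genes wholly higher at 6 h, against 2.99% of all genes, and Mcm3 was the 1 gene wholly lower, against 1.94%. With array weights in the fit 2 genes passed higher and 1 lower.

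Between 6 and 18 h the fall in the water arm took in more of the genes: 17 of 46 were called lower and none higher, where 6.46% of all genes were called lower and 3.12% higher. For 22 genes the 18 h arrays lay wholly below the 6 h arrays, against 8.04% of all genes, and the median log2 fold change was -0.11 against 0.02. The polymerases and primase gave 6 of 9 (Pola1, Pola2, Prim1, Pold2, Pold3 and Pole), origin licensing 3 of 8 (Orc1, Orc2 and Cdc6) and origin firing 3 of 8 (Cdc7, Cdc45 and Gins1). The clamp and lagging strand group gave 2 of 11 (Rfc1 and Pcna), nucleotide supply 2 of 4 (Rrm2 and Tyms) and the helicase ring 1 of 6 (Mcm4). This comparison shares the 18 h water arrays with the one above. Over it 2 of 12 monocyte and macrophage, 2 of 8 endothelial, 1 of 9 T cell and 1 of 3 B cell markers were called higher and none of these lists lower, with a median of 0.22 for the monocyte and macrophage markers, and the part of these cells was not tested. Without single arrays the count was 8 (array 23), 9 (array 15), 10 (arrays 11 or 21) or 11 (arrays 14 or 25), and Orc1, Cdc6, Cdc7, Pold2, Pold3, Rfc1, Rrm2 and Tyms kept their calls in all 17 refits.

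Tyms and Pcna at 6 h had lain wholly above 0 h without passing the threshold. At 18 h Tyms measured 10.66, 10.70, 10.61, 10.63 and 10.65, below every 6 h array, and fell by 18.1% from 6 h (-0.29 ± 0.062, adjusted p = 0.00443). At 18 h Pcna measured 12.44, 12.52, 12.42, 12.46 and 12.43, which overlapped the 0 h arrays and lay below the 6 h arrays (-0.12 ± 0.038, adjusted p = 0.0469). That Pcna call was kept in only 7 of 17 refits. Relative to 0 h, Tyms was at -0.10 ± 0.062, adjusted p = 0.34, and Pcna at -0.01 ± 0.038, adjusted p = 0.92, so neither was called below its starting level. Orc2 measured 10.56, 10.47, 10.49, 10.49 and 10.56 at 6 h and 10.06, 10.42, 10.24, 10.33 and 10.36 at 18 h, with array 21 far below the rest. It fell by 14.9% (-0.23 ± 0.065, adjusted p = 0.0226), a call lost without array 11, 15, 21 or 23. Cdc7 showed its widest change here, -0.29 ± 0.059, adjusted p = 0.00336, and Rfc1, the large subunit of the clamp loader, was at -0.24 ± 0.058, adjusted p = 0.00886.

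With antibiotics few replication genes moved after oxaliplatin. From 0 to 6 h none of the 46 passed, and none of all 19938 genes did (0% called in either direction). At an unadjusted p under 0.05 there were 7 of 46, against 10.1% of all genes. Pold3, Mcm10 and Mcm4 had the smallest p in that contrast. Mcm10 measured 9.90, 10.09, 10.08, 10.17 and 10.14 at 0 h and 10.06, 10.02, 9.83, 9.98 and 9.67 at 6 h, with overlap and array 20 lowest (-0.17 ± 0.055, adjusted p = 0.316). Mcm4 measured 10.73, 10.86, 10.85, 10.85 and 10.90 at 0 h and 10.84, 10.79, 10.58, 10.69 and 10.65 at 6 h, also overlapping, with array 18 lowest (-0.13 ± 0.043, adjusted p = 0.32). Pold3 was at -0.13 ± 0.044, adjusted p = 0.316.

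From 0 to 18 h in the antibiotic arm, Pold2 alone passed among the 46 (1 lower, none higher), where 0.908% of all genes were called lower and 0.316% higher. In a fit of those 2 groups alone that call was lost and none of the 46 passed. The median log2 fold change of the 46 was -0.02, against 0.01 over all genes, and 31 lay below 0, against 44.1%. Orc3, a core subunit of ORC, measured 10.89, 11.02, 11.08, 11.03 and 11.07 at 0 h and 11.15, 11.11, 11.09, 11.15 and 11.11 at 18 h. Its 18 h arrays were wholly above, at 0.10 ± 0.037, adjusted p = 0.214. Rfc3 measured 9.69, 9.78, 9.96, 9.79 and 9.79 at 0 h and 9.89, 9.94, 9.91, 9.97 and 10.05 at 18 h, with overlap and 0.15 ± 0.064, adjusted p = 0.342. From 6 to 18 h Pold2 fell (-0.27 ± 0.044, adjusted p = 0.00222) and Mcm4 rose (0.18 ± 0.043, adjusted p = 0.0299), against 0.888% of all genes called lower and 1.23% higher. Mcm4 measured 10.89, 10.88, 10.84, 10.94 and 10.87 at 18 h, with every array above the highest 6 h array. The Mcm4 call was lost without array 18, 19, 27, 29 or 30, which left 1 gene (Pold2), and both calls were lost in a fit of those 2 groups alone.

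**Figure D3:**
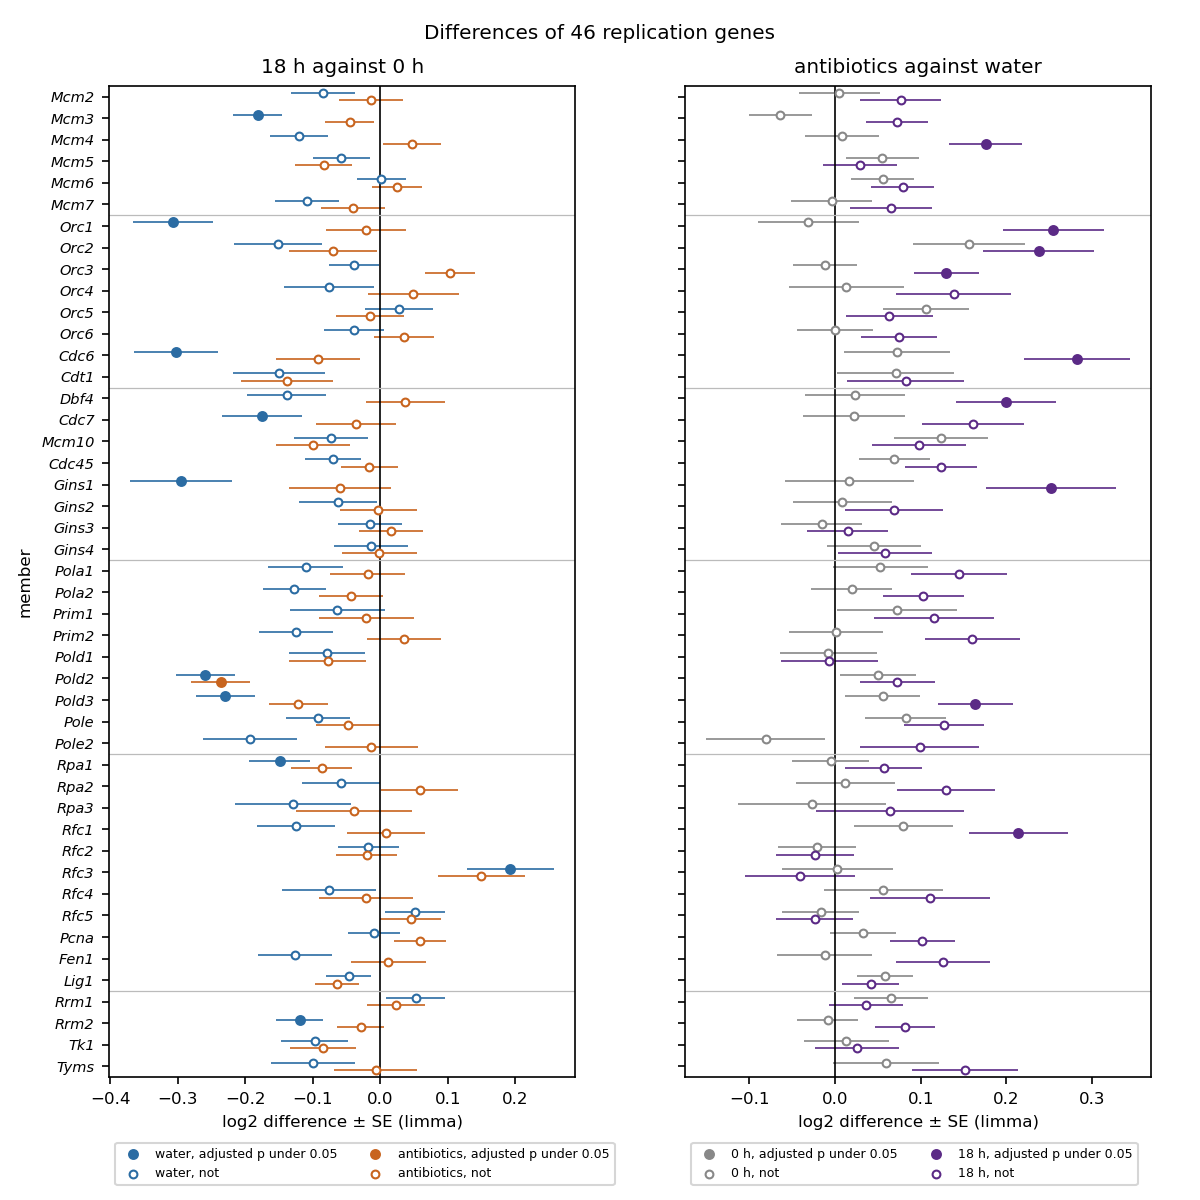
Log2 difference with its SE (limma, 30 arrays) of each of the 46 genes, from 0 to 18 h in water (blue) and antibiotic (orange) tumours on the left, and between antibiotic and water tumours at 0 h (grey) and 18 h (purple) on the right; filled points have an adjusted p under 0.05. On the left 10 blue points and 1 orange point are filled, and on the right 9 purple points and no grey one.

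Antibiotics and water tumours were set against each other at each time. Before oxaliplatin none of the 46 passed, where 0.0903% of all genes were called higher with antibiotics and 0% lower. At an unadjusted p under 0.05 there were 3 of 46, against 6.61%: Orc2, Mcm10 and Orc5. Orc2 measured 10.47, 10.49, 10.30, 10.51 and 10.41 with water and 10.44, 10.64, 10.59, 10.64 and 10.64 with antibiotics, where array 6 alone lay among the water values (0.16 ± 0.065, adjusted p = 0.646). Array 6 was also the lowest antibiotic array at 0 h for Mcm10 (9.90, 10.09, 10.08, 10.17 and 10.14, 0.12 ± 0.055, adjusted p = 0.693) and for Orc5 (9.86, 10.09, 10.10, 10.17 and 10.14, 0.11 ± 0.051, adjusted p = 0.739). On array 6, 44 of the 46 genes lay below the water 0 h mean, against 3 to 13 on the other 4 arrays of its group.

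At 6 h, 1 of 46 genes was called lower with antibiotics and none higher, where 2.64% of all genes were called lower and 1.13% higher. That gene was Cdc7, which measured 8.70, 8.59, 8.53, 8.68 and 8.76 with water and 8.57, 8.52, 8.22, 8.45 and 8.39 with antibiotics. The groups overlapped, array 18 was lowest, and the difference was -0.22 ± 0.059, adjusted p = 0.0314. No gene passed without array 11, 14, 15, 18 or 19, and 3 did without array 16 or without array 20. Mcm4 measured 10.84, 10.78, 10.83, 10.84 and 10.92 with water against the antibiotic values given above, with overlap (-0.13 ± 0.043, adjusted p = 0.0808). Cdt1 measured 10.12, 10.32, 10.35, 10.19 and 9.91 with antibiotics and lay within 9.96 to 10.00 with water. All antibiotic arrays but array 20 were above all water arrays, and the difference was 0.20 ± 0.068, adjusted p = 0.0868. Arrays 11, 16, 18 and 20, which carried skin or muscle markers or a narrow spread, all belong to the 6 h groups, and without those 4 no gene passed.

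At 18 h, 9 of the 46 replication genes were higher in antibiotic than in water tumours and none were lower. The 9 were Cdc6, Orc1, Gins1, Orc2, Rfc1, Dbf4, Mcm4, Pold3 and Orc3, with differences from 9.43% (Orc3) to 21.6% (Cdc6). Over all genes 4.52% were called higher and 3.34% lower. For 14 of the 46 every antibiotic array lay above every water array, against 4.73% of all genes, and the median difference was 0.10 against -0.01. This contrast uses the same 18 h water arrays as the falls described above, so the 2 sets of values are not independent.

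That count was also sensitive to single arrays. It was 3 without array 21, 23 or 26 and 4 without array 29, and 4 in a fit of the 2 groups alone. Cdc6, Orc1 and Mcm4 kept their calls in all 17 refits. In the same contrast 2 of 12 monocyte and macrophage, 1 of 9 T cell and 1 of 3 B cell markers were called lower with antibiotics and none of them higher, with medians of -0.40, -0.12 and -0.14. The mean level of the B cell markers, of which Ms4a1 and Cd79a had low signal, was -0.140 to 0.0682 with antibiotics, below all 5 water arrays. The 8 fibroblast markers had a median of -0.22 with none called. The part of these other cells in the difference was not tested.

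By role, origin recognition and licensing gave 4 of 8, origin firing 2 of 8, and the helicase ring (6 genes), the polymerases (9) and the clamp group (11) 1 each. Of all genes 4.52% were called higher. Orc1 lay at 8.97 to 9.10 with antibiotics and 8.63 to 8.95 with water at 18 h, which did not overlap (0.25 ± 0.059, adjusted p = 0.00778). Cdc6 overlapped narrowly, since water array 24 read 8.52 and antibiotic array 28 read 8.52 (0.28 ± 0.062, adjusted p = 0.00541). Orc2 measured 10.55, 10.51, 10.48, 10.56 and 10.50 with antibiotics against the water values given above, wholly higher (0.24 ± 0.065, adjusted p = 0.0217). Orc3 measured 10.98, 11.05, 11.00, 10.97 and 10.95 with water, wholly below the antibiotic arrays (0.13 ± 0.037, adjusted p = 0.0297).

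Gins1 measured 9.71, 9.57, 9.50, 9.71 and 9.57 with antibiotics, all above the water arrays, although array 28 exceeded water array 24 by little (0.25 ± 0.075, adjusted p = 0.0362). Dbf4, which switches on Cdc7, was higher by 14.8% (0.20 ± 0.058, adjusted p = 0.0329), while Cdc7 itself measured 8.57, 8.50, 8.42, 8.60 and 8.54 with antibiotics and missed the threshold (0.16 ± 0.059, adjusted p = 0.0974). Mcm4 measured 10.66, 10.77, 10.67, 10.73 and 10.72 with water, all below the antibiotic arrays (0.18 ± 0.043, adjusted p = 0.0111). Mcm2, another subunit of the ring, measured 11.47, 11.44, 11.51, 11.47 and 11.41 with antibiotics and overlapped the water group (0.08 ± 0.047, adjusted p = 0.412). Mcm3 measured 10.71, 10.60, 10.62, 10.63 and 10.60 with antibiotics, wholly above the water arrays yet not past the threshold (0.07 ± 0.036, adjusted p = 0.269). Mcm6, with 3 words of E2F type, was at 0.08 ± 0.037, adjusted p = 0.219.

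Pold3 was 10.43 ± 0.054 (SD, n = 5) with antibiotics and 10.27 ± 0.068 with water, without overlap (0.16 ± 0.044, adjusted p = 0.0187). Pold2 was 10.87 ± 0.098 and 10.80 ± 0.081, and overlapped (0.07 ± 0.044, adjusted p = 0.4). Rfc1 was 10.26 ± 0.036 and 10.05 ± 0.081, without overlap (0.21 ± 0.058, adjusted p = 0.0207). Tyms measured 10.90, 10.73, 10.75, 10.85 and 10.79 with antibiotics, above every water array, and Pcna measured 12.57, 12.54, 12.52, 12.64 and 12.51, overlapping. They stood at 0.15 ± 0.062, adjusted p = 0.14 and 0.10 ± 0.038, adjusted p = 0.106, both short of the threshold. Rrm2 measured 11.81, 11.75, 11.70, 11.73 and 11.72 with antibiotics (0.08 ± 0.035, adjusted p = 0.174), and Rpa1 10.84, 10.72, 10.67, 10.80 and 10.80 (0.06 ± 0.045, adjusted p = 0.58). No nucleotide supply gene passed.

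Whether oxaliplatin acted differently on these genes in the 2 arms is asked by the interaction of antibiotics with time, which compares the changes themselves. At 18 h none of the 46 passed, where 0.0451% of all genes were called higher and 0.0602% lower, and 8 of 46 had an unadjusted p under 0.05, against 9.49%. The change of Orc1 from 0 to 18 h was higher with antibiotics than with water by 0.29 ± 0.084 with an adjusted p of 0.172. Under quantile normalisation between arrays Orc1 passed (0.28 ± 0.062, adjusted p = 0.033). Mcm4 came next (0.17 ± 0.061, adjusted p = 0.311), and the median over the 46 was 0.07, against 0.00 over all genes. At 6 h none passed (0% of all genes in either direction), and 6 of 46 had an unadjusted p under 0.05, against 9.85%. A fall called in the water arm and not with antibiotics is therefore not shown to differ between the arms, for any of the 46 genes in the fit to the values as deposited.

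Averaged over the 3 times, Orc2 alone was higher with antibiotics (0.13 ± 0.037, adjusted p = 0.0385). None of the 46 was lower, against 4.07% of all genes. The count of 1 in 46 higher (2.17%) was near the 2.57% of all genes called higher. That count moved with single arrays: it was 0 without any of arrays 3, 5, 7 to 10, 12 to 14, 16 to 18, 21, 23, 26 or 29, it was 2 without array 4, 15, 24, 28 or 30, it was 4 without array 6 and 7 without array 20. Cdc6 (0.11 ± 0.036, adjusted p = 0.0556) and Cdt1 (0.12 ± 0.039, adjusted p = 0.0663) followed. Orc2 was not higher with antibiotics at each time, since at 6 h it averaged 10.50 with antibiotics and 10.52 with water.

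**Figure D4:**
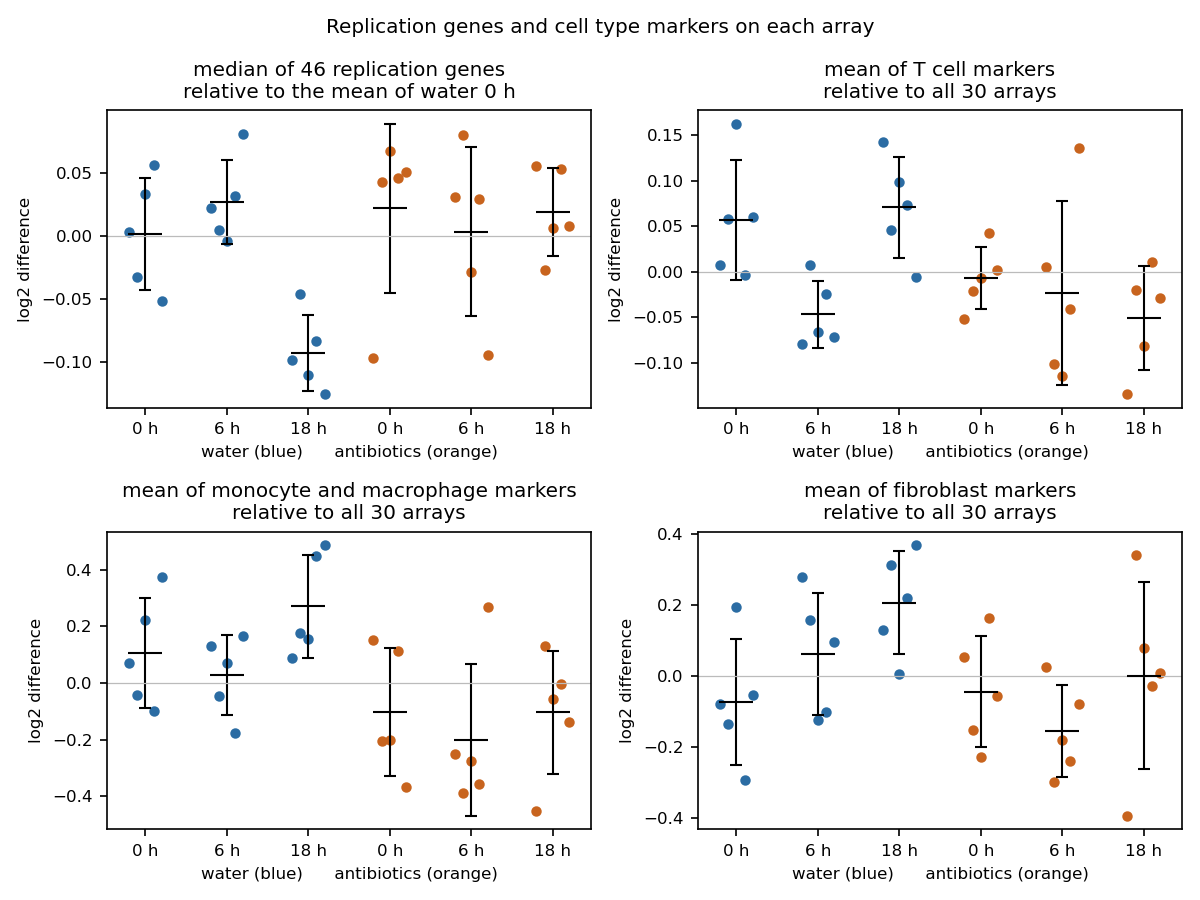
For each array, the median log2 difference of the 46 genes from the water 0 h mean, and the mean log2 level of T cell, monocyte and macrophage, and fibroblast markers relative to all 30 arrays (points), with group means and SD of 5 arrays. The 5 water arrays at 18 h have medians of -0.125 to -0.0462 and the 5 antibiotic arrays at 18 h -0.0266 to 0.0554, and monocyte and macrophage markers run from 0.0895 to 0.486 on the first and from -0.453 to 0.132 on the second.

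Other genes of the pathway were called in the same contrasts. Of 35 further replication genes, 8 were called lower and 1 higher in water tumours from 0 to 18 h, against 7.94% and 6.18% of all genes. From 6 to 18 h 15 were lower and none higher, against 6.46% and 3.12%. With antibiotics at 18 h 13 were higher and none lower, against 4.52% and 3.34%. Of those 13, only Mtbp, Rnaseh2b and Dck kept their calls in all 17 refits. In a fit of those 2 groups at 18 h alone, only Gmnn, Clspn, Mtbp, Atad5 and Rnaseh2b passed, and Dck had an adjusted p of 0.0621. With antibiotics at 6 h 4 were lower (Clspn, Topbp1, Dna2 and Atad5) and none higher, against 2.64% and 1.13%. None of these 4 passed in a fit of those 2 groups alone. Clspn, Dna2 and Atad5 were among the genes higher at 18 h. Mtbp, a partner of the origin firing factor Ticrr, fell in both arms. It fell by 26.6% with water (-0.45 ± 0.068, adjusted p = 4.58e-05) and fell by 23.5% with antibiotics (-0.39 ± 0.068, adjusted p = 0.00253), the second of which had an adjusted p of 0.0518 when the 2 groups were fitted alone. It was nonetheless higher with antibiotics at 18 h (0.35 ± 0.068, adjusted p = 0.00202). Dut, which clears dUTP, was at -0.22 ± 0.048, adjusted p = 0.00169, and Chaf1a, which deposits histones behind the fork, at -0.20 ± 0.047, adjusted p = 0.00354, both from 0 to 18 h with water. Uhrf1, which brings the maintenance methylase Dnmt1 to new DNA, was at -0.18 ± 0.043, adjusted p = 0.00396. In a fit of the water 0 and 18 h groups alone, Chaf1a and Uhrf1 had adjusted p of 0.0529 and 0.0514.

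Of 24 regulators of S phase, 12 fell and 1 (Cdk4) rose in the water arm by 18 h, against 7.94% and 6.18% of all genes. With antibiotics at that time 9 were higher and none lower than with water, against 4.52% and 3.34%. Of those 9, only E2f8, Slbp, Fbxo5 and Chek1 passed in a fit of those 2 groups alone. E2f2, E2f3 and Ccna2 kept that call in 11, 9 and 8 of 17 refits. The Cdk4 call was lost with array medians subtracted, with quantile normalisation and without any 1 of 8 arrays. Fbxo5, an inhibitor of the anaphase-promoting complex, fell by 31.7% (-0.55 ± 0.071, adjusted p = 5.17e-06). E2f8, a repressor of the E2F family, was at -0.38 ± 0.058, adjusted p = 4.84e-05, and the checkpoint kinase Chek1 at -0.37 ± 0.071, adjusted p = 0.000522. Wee1, the kinase that holds back mitosis, was at -0.34 ± 0.046, adjusted p = 9.50e-06 with water and 0.01 ± 0.046, adjusted p = 0.983 with antibiotics. Wee1 was the 1 gene of these lists, and not one of the 46, whose interaction at 18 h passed (0.35 ± 0.066, adjusted p = 0.0227), a call lost without array 1, 4, 7, 23, 26 or 29 and, at an adjusted p of 0.0890, in a fit of the 4 groups alone. Set against water, Wee1 with antibiotics was at -0.17 at 0 h (not called) and at 0.19 at 18 h.

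Of 27 mitotic genes, 7 fell in water tumours by 6 h and 12 by 18 h, and none rose at either time, where 0.416% and 7.94% of all genes were called lower. Among the 6 h calls, Tpx2 kept its call in 7 of 17 refits and Prc1 in 13. In fits of the groups compared alone, Tpx2 did not pass at 6 h, nor did Ttk, Kif11 and Kif2c at 18 h. The other mitotic calls at those times did. Between 6 and 18 h 4 of the 27 rose (Aurka, Cdc20, Cenpa and Kif20a) and 2 fell (Mad2l1 and Ndc80), against 3.12% and 6.46% of all genes. The Cenpa and Kif20a calls were lost with array medians subtracted. At 6 h the kinase Plk1 was at -0.35 ± 0.049, adjusted p = 0.000342, and the kinetochore protein Cenpf at -0.32 ± 0.068, adjusted p = 0.0138. At 18 h they were at -0.22 ± 0.049, adjusted p = 0.00255 and -0.32 ± 0.068, adjusted p = 0.00165. Incenp, of the chromosomal passenger complex, was at -0.19 ± 0.044, adjusted p = 0.00382, and the spindle factor Tpx2 at -0.19 ± 0.047, adjusted p = 0.00689. With antibiotics none of the 27 passed from 0 to 6 h, where 0% of all genes did, or from 0 to 18 h, where 0.316% were called higher and 0.908% lower. From 0 to 6 h with antibiotics, 23 of the 27 still lay below 0. At an unadjusted p under 0.05 there were 11, against 10.1% of all genes. The median change by 6 h was -0.08 with antibiotics and -0.09 with water, and by 18 h 0.02 and -0.14. The interaction at 6 h or 18 h passed for none of the 27. From 6 to 18 h 3 of them rose with antibiotics (Cenpe, Kif20a and Kif23, against 1.23% of all genes), and none of the 3 passed in a fit of those 2 groups alone. At 18 h 4 were higher with antibiotics than with water, against 4.52%. The 46 replication genes gave 0 calls in the water arm at 6 h, when these mitotic genes gave 7. That difference between the lists was not tested.

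Words of E2F type were found both in genes that passed and in genes that did not. A word was held by 5 of 9 (55.6%) genes with a promoter that were called in either direction from 0 to 18 h in water tumours, and by 10 of the other 30 (33.3%). Rfc3, which rose, was among those 5. For the change from 6 to 18 h the counts were 4 of 14 (28.6%) against 11 of 25 (44.0%), and for antibiotics against water at 18 h they were 4 of 7 (57.1%) against 11 of 32 (34.4%). Orc1 and Cdc6, shown above with a word before the start, passed in all 3 comparisons. Pold3 passed in all 3 as well with a word only after the start, and Pold2, with none, passed in 2 of them.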

How the data were processed

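Values are log2 expression per array row as deposited by the authors in the series' value table (28853 rows, 30 arrays). Per the submitters' processing notes Partek 6.6 was used; summarisation, background correction and normalisation are not given in the sources used here. Rows were named by GEO's platform annotation: 21775 rows had 1 symbol, 1578 had several and 5500 had none, and rows of the last 2 kinds were left out. The row with the highest mean stood for each of 19938 genes. A model of 6 group means on all 30 arrays was fitted with limma 3.58.1 in R 4.3.3 (24 residual degrees of freedom), with two-sided moderated tests of 12 contrasts. Benjamini-Hochberg adjustment ran over all genes within each contrast, and an adjusted p under 0.05 was called. The script was tested on simulated data. Precision is limited by 5 arrays a group.

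The genes, the 3 lists beside them and the tests were chosen with earlier results of these data known. Values array by array are given for the 8 genes of smallest unadjusted p from 0 to 18 h with water, the 4 from 0 to 18 h with antibiotics, the 3 in each contrast of 6 with 0 h, in antibiotics against water at each time and in the interaction at 18 h, and for Mcm2, Pcna, Cdt1 and Rrm2, 19 in all. From each other list the 4 genes of smallest p from 0 to 18 h with water are named. Alternatives covered scaling, dim genes, several rows per gene, the variance model, the groups fitted, a minimum change and the loss of each array.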

Additional observations from a re-analysis of the deposited data

Results flagged for a closer look

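Within the groups of 5 arrays, 11 of 120 sets of values held an array set apart from the other 4 by most of the group's range, where chance gives about 1 in 20. In antibiotic tumours at 6 h these were Mcm2 on array 20 (11.24, next lowest 11.45), Orc1 on array 18 (8.71, next 9.00), Rpa1 on array 18 (10.63, next 10.79) and Cdc6 on array 17 (8.77, next highest 8.69). In antibiotic tumours at 0 h array 6 was lowest for Orc2 (10.44, next 10.59), for Orc5 (9.86, next 10.09) and for the median of the 46 genes relative to the water 0 h mean (-0.097, next 0.0425). In water tumours at 6 h array 15 was highest for Orc5 (10.15, next 10.09), Rfc3 (10.04, next 9.89) and Rrm2 (11.86, next 11.81). In water tumours at 18 h array 25 was lowest for Pold2 (10.66, next 10.80).

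Between the arms, the change of Wee1 from 0 to 18 h differed by 0.35 on the log2 scale (antibiotics minus water, limma interaction, adjusted p = 0.0227), with -0.34 in water tumours and 0.01 in antibiotic tumours. Set against water, Wee1 with antibiotics was at -0.17 at 0 h (not called) and at 0.19 at 18 h. The interaction call was lost without array 1, 4, 7, 23, 26 or 29. It was also lost, at an adjusted p of 0.0890, in a fit of the 4 groups alone. Wee1 is a regulator of S phase and mitosis and not one of the 46 genes.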

How the results depend on the processing

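No called value of a named gene reversed under any alternative. When each array was left out in turn, the count ranged from 6 to 10 for 0 to 18 h with water (10 in the full fit), 8 to 16 for 6 to 18 h with water (17) and 1 to 3 for 6 to 18 h with antibiotics (2). For antibiotics against water it ranged from 0 to 3 at 6 h (1), 3 to 9 at 18 h (9) and 0 to 7 over all times (1). Requiring a change of at least 0.3 on the log2 scale left 2 genes from 0 to 18 h and 1 from 6 to 18 h with water, and 0 in the antibiotic arm's 2 contrasts to 18 h and in antibiotics against water at 6 h, at 18 h and over all times. Fitting only the groups compared gave 0 calls from 0 to 18 h and from 6 to 18 h with antibiotics, 0 for antibiotics against water at 6 h and 4 at 18 h.

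Averaged over times, antibiotics against water gave 4 calls with array medians subtracted, 3 with quantile normalisation, 4 with only genes above the median level, 3 with a trended, robust variance, 9 with array weights and 3 without arrays 11, 16, 18 and 20. At 6 h it was 0, 2, 3 and 2 with medians subtracted, quantile normalisation, brighter genes and array weights, and 0 without those 4 arrays; at 18 h it was 14 with brighter genes. From 0 to 6 h with water 1 gene passed with brighter genes, 1 with the trended variance and 3 with array weights. From 6 to 18 h with antibiotics 1 passed with medians subtracted and 1 without the 4 arrays, an alternative chosen after seeing the data. The interaction at 18 h gave 1 with quantile normalisation. The cause of these shifts was not tested, apart from the fewer genes or arrays that some alternatives use. Of 195 values of named genes short of the threshold, 14 changed sign with medians subtracted, 12 with quantile normalisation, 21 with array weights and 23 without the 4 arrays, as did 102 of 2690 values with 1 array left out. No paired analysis was possible because the groups share no sample numbers.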
